A study of Mus musculus with 8 samples.

Results

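The genes examined here are 10 genes of the MHC class I antigen presentation pathway, measured by RNA-seq in Paneth cells of mice kept with or without dietary zinc. They were chosen by name from the deposited gene counts, as 10 of 55414 Ensembl gene identifiers: H2-K1, H2-D1, B2m, Tap1, Tap2, Tapbp, Psmb8, Psmb9, Psmb10 and Nlrc5. Paneth cells are secretory cells at the base of the small intestinal crypts that release antimicrobial peptides. All 8 mice were C57BL/6J, and Paneth cells were purified from a cell suspension of the small intestine by fluorescence-activated sorting. The control group held 4 mice on standard chow, and the zinc deficient group held 4 mice on zinc depleted chow. The time on the diet is given as 7 weeks for both groups. Each mouse gave 1 poly(A)-selected, stranded library, and no allele, infection or other agent is given for either group. The sources used here do not give the age or sex of the mice. The comparison of the diets asks how lack of zinc changes the Paneth cell transcriptome.

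MHC class I molecules display short peptides from inside the cell to CD8 T cells, and almost every nucleated cell makes them. A heavy chain, H2-K or H2-D in C57BL/6J mice, pairs with beta-2-microglobulin (B2m) in the endoplasmic reticulum. The peptides come from proteasomes, whose catalytic subunits can be replaced by the inducible subunits Psmb8, Psmb9 and Psmb10 to form the immunoproteasome. The Tap1 and Tap2 transporter then carries the peptides into the endoplasmic reticulum, where tapasin (Tapbp) holds the empty heavy chain beside the transporter. Nlrc5 is the transactivator that acts at the promoters of several of these genes together with the RFX, CREB and NF-Y factors. Interferons raise the expression of the whole group.

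In GENCODE M39 (GRCm39), 7 of the 10 genes lie on chromosome 17. Of these, 6 lie within a stretch of 300957 bases, chr17:34134873-34435829, which holds Tapbp, H2-K1, Psmb9, Tap1, Psmb8 and Tap2. H2-D1 lies further along the chromosome, at chr17:35481691-35486475. B2m is on chromosome 2, and Psmb10 and Nlrc5 are on chromosome 8. Promoters of 300 bases, 250 before and 50 after the start site, were matched by symbol in RefSeq (GRCm38.p6) for 8 genes. Tap2 and Nlrc5 were the other two.

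The stretches below are shown because the promoters of H2-K1, H2-D1 and B2m, the 3 most highly expressed of the 10 genes, held the same pair of elements at the same distance. TGACG, the core of the X2 box bound by CREB family proteins, and ATTGG, the inverted Y box (CCAAT) bound by NF-Y, are in capitals, with 20 bases between them. The sequences run 5′ to 3′ on the strand of the gene, and positions come from an exact match to GRCm39.
H2-K1, chr17:34219333-34219362, minus strand: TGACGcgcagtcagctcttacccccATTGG
H2-D1, chr17:35481969-35481998, plus strand: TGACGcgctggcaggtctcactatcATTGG
B2m, chr2:121978090-121978119, plus strand: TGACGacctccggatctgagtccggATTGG
The H2-K1 stretch lies before the start of the gene record of GENCODE M39. The other two lie in exons of their own genes there, because these records start further upstream than the RefSeq start sites. This pair at this distance was present in 31 of 32851 RefSeq promoters, 0.0944%. The distance was chosen after the matches had been seen, and H2-M3, another class I heavy chain gene, was among the 27 genes that held it.

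Other elements of class I promoters were searched by fixed letters, which miss other spellings of the same element. The letters GGGNNTTCC, searched on both strands like all motifs here, stand for the class I kappaB element and were found in 2 of the 8 promoters, against 5.82% of all promoters. The 2 genes were H2-K1 and H2-D1, and the stretches around the element, in capitals, were nearly the same.
H2-K1, chr17:34219414-34219442, minus strand: gcccagggctGGGGATTCCccatctccac
H2-D1, chr17:35481889-35481917, plus strand: gcccagggctGGGGATTCCccatctcctc
An interferon-stimulated response element was found in 1 of the 8 promoters (B2m) and in 3.44% of all promoters. Its letters are in capitals.
B2m, chr2:121978019-121978048, plus strand: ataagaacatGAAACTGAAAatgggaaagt
TTCNNNGAA, a gamma-activated site that reads the same on both strands, was found in the promoter of Psmb8 alone and in 8.3% of all promoters. TGACG on its own was found in 5 of the 8 promoters and in 20.8% of all promoters, and CCAAT in 6 of the 8 and in 37.4%. A match describes letters in a window of 300 bases and not a bound site. No element was compared with the diet response.

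The data were whole-number counts per gene, with 8557690 to 12648005 counts per mouse. Counts were scaled between mice by TMM, a method that assumes that most genes do not change, and are given per 1000000 counts (CPM) after that scaling. Control replicate 1 (TMM factor 1.57) and zinc deficient replicate 2 (0.719) stood apart from the factors of the other 6 mice, 0.846 to 1.16. Markers of Paneth cells summed to 148100 to 284600 CPM in control and 235700 to 374000 CPM in zinc deficient mice, and all 8 had log2 fold changes above 0 (median 0.46), with 0 called by edgeR, 3 at an unadjusted p under 0.05 and 1 called by DESeq2 (Mptx2). Markers of all leukocytes summed to at most 2.71 CPM and those of T and NK cells to at most 1.21 CPM. The myeloid list summed to 15.6 to 39.8 CPM in control and 36.5 to 51.9 CPM in zinc deficient mice, nearly all of it Lyz2, with 5 of its 9 genes at 0 in every mouse. Lyz2 had a log2 fold change of 0.64 (SE 0.24, edgeR adjusted p = 0.338). Of the 11 T and NK cell markers, 6 were at 0 in every mouse. Tuft cell markers summed to 315.5 CPM in zinc deficient replicate 3 and to 17.5 to 83.6 CPM in the other mice. Stem and cycling cell markers summed to 1260 to 1828 CPM in control and 495 to 1022 CPM in zinc deficient mice. All 6 had log2 fold changes below 0 (median -0.84) and an unadjusted p under 0.05 in edgeR, which 10.5% of all tested genes reached. Of these markers, 3 did not overlap between diets, beside 6.09% of all tested genes. After adjustment, 1 of 6 passed the test in edgeR (Top2a, lower), in 12 of 17 alternatives too. DESeq2 called Olfm4 as well, also lower. In bulk libraries of this kind, fewer cells of a type and less RNA per cell cannot be told apart. Goblet cell markers summed to 4050 to 12560 CPM and enterocyte markers to 85.0 to 248 CPM, with overlap between the diets. Enteroendocrine cell markers summed to 20.6 to 40.7 CPM in control and 16.2 to 40.4 CPM in zinc deficient mice. Of the 3 tested, Chga and Chgb had log2 fold changes of -1.64 and -1.01 and Sct of 0.07, with 0 called. The part of these other cell types in the values of the 10 genes was not tested.

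Among the 10 genes, those of the class I molecule itself had the highest levels. Levels of different genes are compared as TPM, in which counts are divided by the summed exon length of a gene and scaled to 1000000 per mouse, without TMM. H2-K1 had a level of 70.5 TPM ± 21.7 (SD, n = 8 mice), which ranked it 123rd of all genes. B2m followed with 56.8 TPM ± 14.4 and H2-D1 with 48.8 TPM ± 13.9. The next level was that of Psmb10, at 10.9 TPM ± 2.73, and then Tapbp, at 6.15 TPM ± 2.57. Psmb8 had 2.02 TPM ± 0.912, Tap2 1.34 TPM ± 0.552, Psmb9 0.962 TPM ± 0.449 and Tap1 0.843 TPM ± 0.399. Nlrc5 was the lowest, with a mean of 0.0204 TPM.

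Most of this order held within each mouse. H2-K1 was above B2m in 8 of 8 mice, with an exact sign-flip test over the 8 mice giving an adjusted p of 0.0141 (two-sided, on log2(TPM + 1), 9 neighbouring pairs). With summed exon lengths, the mean within-mouse difference did not pass 0.05 in 2 neighbouring pairs. These were Tap2 and Psmb9 (adjusted p = 0.0703, exact sign-flip test) and Psmb9 and Tap1 (adjusted p = 0.367, exact sign-flip test). B2m was above H2-D1 in 6 of 8 mice. That pair and the pair of Psmb9 and Tap1 changed places when the length of the longest transcript replaced the summed exon length.

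**Figure D1:**
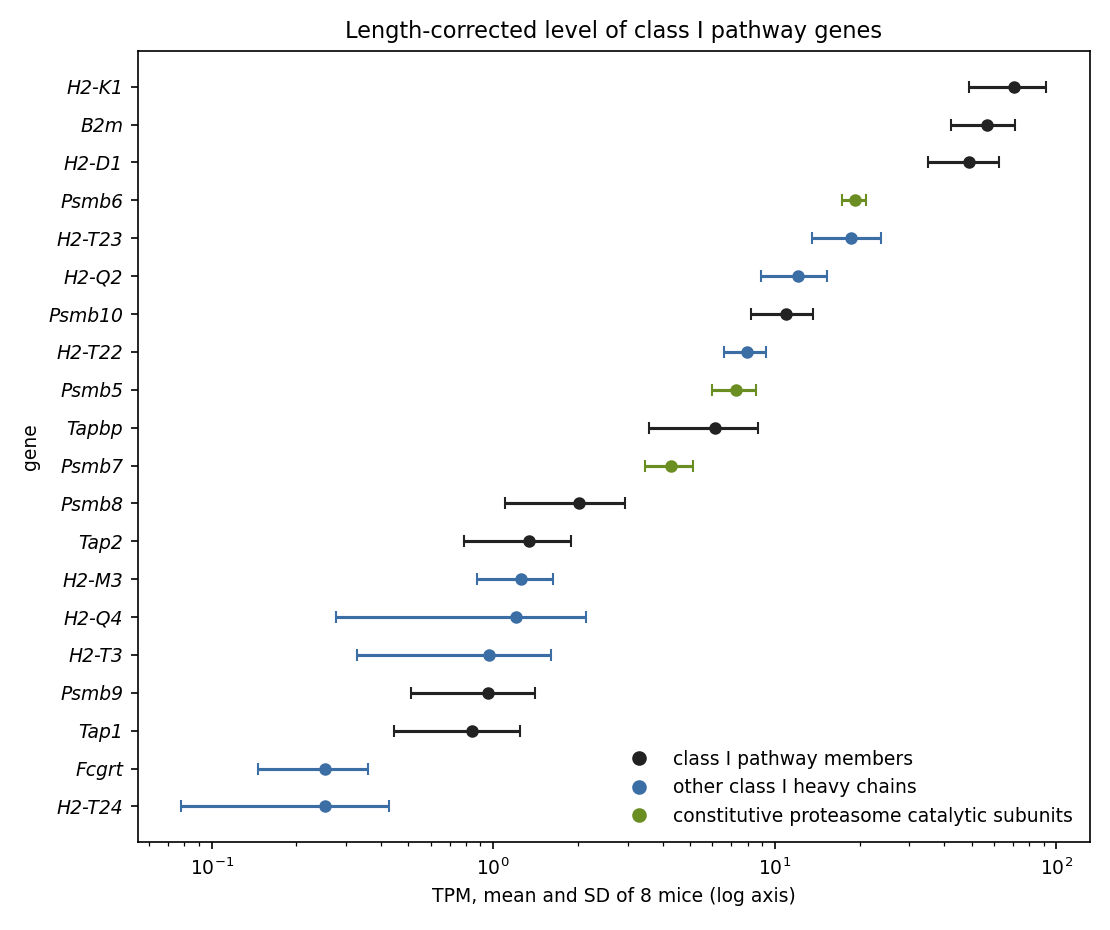
Length-corrected level (TPM, log axis) of the 9 tested class I pathway genes (black), other class I heavy chain genes (blue) and the constitutive catalytic subunits of the proteasome (green). Points are means and bars are SDs of 8 mice. H2-K1, B2m and H2-D1 stand above all other genes plotted, and Tap1, at 0.843 TPM, is the lowest of the black points.

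Zinc deficiency left the class I pathway without a detectable change at this number of mice. Of the 10 genes, 9 passed the expression filter, and 0 of 9 were called higher or lower by edgeR's quasi-likelihood test (Benjamini-Hochberg adjustment over 10911 genes). Over all tested genes, 44 were called (0.403%), 16 of them higher (0.147%) and 28 lower (0.257%) on the zinc deficient diet. DESeq2's Wald test called 0 of the 10 genes as well. At an unadjusted p under 0.05, edgeR and DESeq2 each found 1 gene, H2-D1, where 10.5% of all tested genes reached that level in edgeR. The values of the 2 diets overlapped for all 9 genes, whereas they did not overlap for 6.09% of all tested genes. The log2 fold changes, zinc deficient over control, ranged from -0.35 to 0.36 with a median of 0.06, and 6 were above 0. The median over all tested genes was -0.01. None of the 9 tested genes was called under any of the 17 alternatives tried.

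The heavy chain H2-K1 had 237, 235, 295 and 259 CPM in control mice 1 to 4 and 268, 249.5, 303 and 267 CPM in zinc deficient mice 1 to 4. The diets overlapped, and replicate 3 was the highest mouse of each. Zinc deficient over control, the log2 fold change was 0.08 (SE 0.15), with a 95% confidence interval of -0.24 to 0.41 (edgeR, adjusted p = 0.906), and it was 0.03 without zinc deficient replicate 3 and 0.16 without control replicate 3. A change of more than 1.33-fold upward or to less than 0.846 of the control level lies outside that interval.

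H2-D1, the other classical heavy chain, came closest to a difference. Control mice had 134, 144, 180.2 and 153 CPM, and zinc deficient mice had 194, 154, 222.5 and 213 CPM. Zinc deficient replicates 1, 3 and 4 lay above every control mouse, while replicate 2 lay within the control range. The log2 fold change was 0.36 (SE 0.16, 95% confidence interval 0.02 to 0.70), 1.28-fold, with an unadjusted p of 0.0377 and an adjusted p of 0.44 in edgeR's quasi-likelihood test. Without a control mouse or a zinc deficient mouse in turn, the log2 fold change stayed between 0.30 and 0.46. Without control replicate 1 and zinc deficient replicate 2, it was 0.40 (adjusted p = 0.370, edgeR). Scaled by library size alone it was 0.05, in a fit where the median of all tested genes was -0.37.

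B2m, the light chain shared by all class I molecules, had 114, 133, 167 and 143 CPM in control mice and 159, 128, 145 and 148 CPM in zinc deficient mice. The zinc deficient values lay inside the control range. For B2m the log2 fold change was 0.06 (SE 0.15, 95% confidence interval -0.26 to 0.38, edgeR adjusted p = 0.938).

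**Figure D2:**
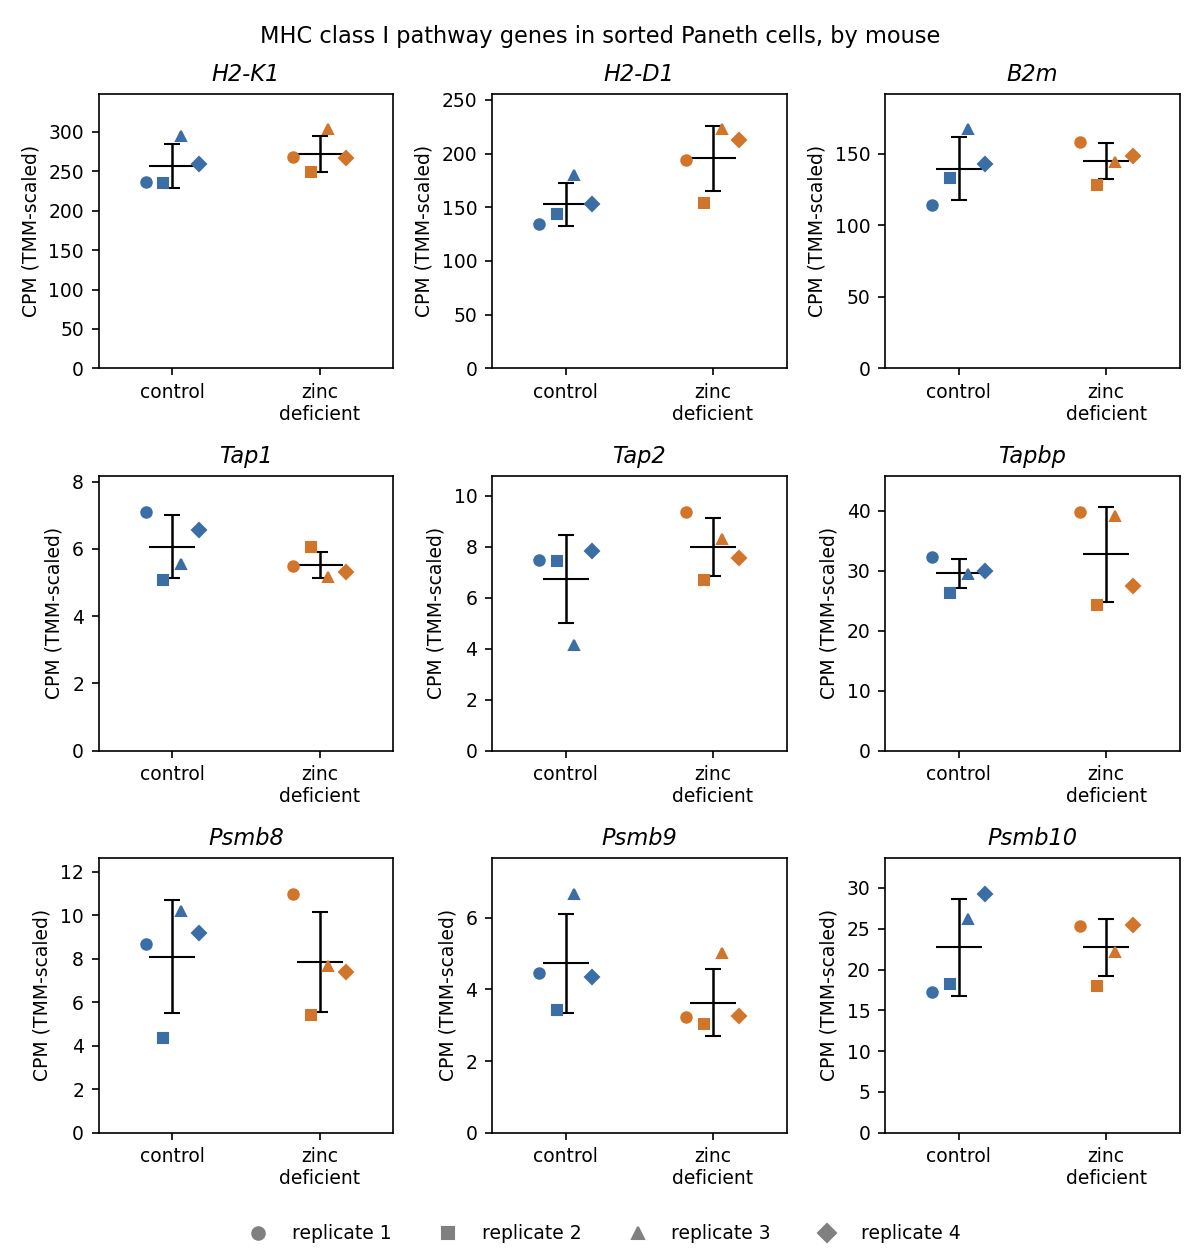
TMM-scaled CPM of the 9 tested class I pathway genes in each mouse, control (blue) and zinc deficient (orange), with marker shapes for the replicate number. Horizontal lines are means and bars are SDs of 4 mice. The values of the 2 diets overlap in every panel, and 3 of the 4 zinc deficient values of H2-D1 lie above all control values.

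The peptide transporter was counted less deeply. Tap1, one chain of the transporter, had 44 to 132 counts per mouse, or 7.11, 5.08, 5.54 and 6.56 CPM in control and 5.50, 6.06, 5.18 and 5.32 CPM in zinc deficient mice. The zinc deficient mice lay close together, within the control range. Its log2 fold change was -0.15 (SE 0.22, 95% confidence interval -0.61 to 0.31, edgeR adjusted p = 0.880), and it was -0.06 without control replicate 1.

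Tap2, the other chain, had 7.49, 7.45, 4.16 and 7.83 CPM in control and 9.38, 6.69, 8.28 and 7.57 CPM in zinc deficient mice. Control replicate 3 lay far below the other control mice, on 33 counts. For Tap2 the log2 fold change was 0.23 (SE 0.23, 95% confidence interval -0.24 to 0.71, edgeR adjusted p = 0.780), and without control replicate 3 it was 0.08, and without zinc deficient replicate 1 it was 0.15. Tapbp, the tapasin gene, had 32.4, 26.4, 29.5 and 30.03 CPM in control and 39.9, 24.4, 39.2 and 27.5 CPM in zinc deficient mice. The zinc deficient mice split around the control range, with 2 above it and 1 below it. Its log2 fold change was 0.15 (SE 0.17, 95% confidence interval -0.21 to 0.50, edgeR adjusted p = 0.817). It was 0.04 and 0.06 without zinc deficient replicates 1 and 3, and 0.27 and 0.23 without replicates 2 and 4. Tapbp shares 3422 bases of its record with Zbtb22 on the same strand, so its reads may in part have been assigned elsewhere.

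The immunoproteasome subunits Psmb8 and Psmb9 had low counts, 43 to 161 and 24 to 83 per mouse. Psmb8 (LMP7), which takes the place of Psmb5, had 8.67, 4.34, 10.2 and 9.20 CPM in control and 10.99, 5.42, 7.65 and 7.38 CPM in zinc deficient mice. Replicate 2 was the lowest mouse on both diets. The log2 fold change was -0.03 (SE 0.26, 95% confidence interval -0.59 to 0.52, edgeR adjusted p = 0.979), and its sign depended on which mice were included.

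Psmb9 (LMP2), which takes the place of Psmb6, had 4.47, 3.44, 6.67 and 4.34 CPM in control and 3.23, 3.03, 5.02 and 3.27 CPM in zinc deficient mice. Zinc deficient replicates 1, 2 and 4 lay below every control mouse, and replicate 3 was the highest on its diet as on the control diet. The log2 fold change was -0.35 (SE 0.28, 95% confidence interval -0.95 to 0.24, edgeR adjusted p = 0.728), and it was -0.15 without control replicate 3 and -0.55 without zinc deficient replicate 3. With 24 to 83 counts per mouse, this interval reaches down to 0.518 of the control level, so a halving would barely lie outside it. Psmb9 and Tap1 overlap on opposite strands by 743 bases, and the sources used here do not give the strand setting of the counting.

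Psmb10 (MECL-1), which takes the place of Psmb7, had 17.2, 18.3, 26.2 and 29.3 CPM in control and 25.3, 18.04, 22.1 and 25.5 CPM in zinc deficient mice. The diets had nearly the same mean, 22.7 ± 5.92 and 22.8 ± 3.5 CPM (SD, n = 4 each). Its log2 fold change was 0.01 (SE 0.19, 95% confidence interval -0.38 to 0.41, edgeR adjusted p = 0.990).

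Nlrc5, the class I transactivator, was almost not counted. Control mice had 11, 0, 0 and 0 counts, and zinc deficient mice had 1, 5, 1 and 0 counts. A count of 0, seen in 4 mice, allows a level of up to 3 counts, which is 0.237 to 0.351 CPM before TMM scaling over the 8 libraries. The gene failed the filter, and no difference between diets was detectable at this depth.

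**Figure D3:**
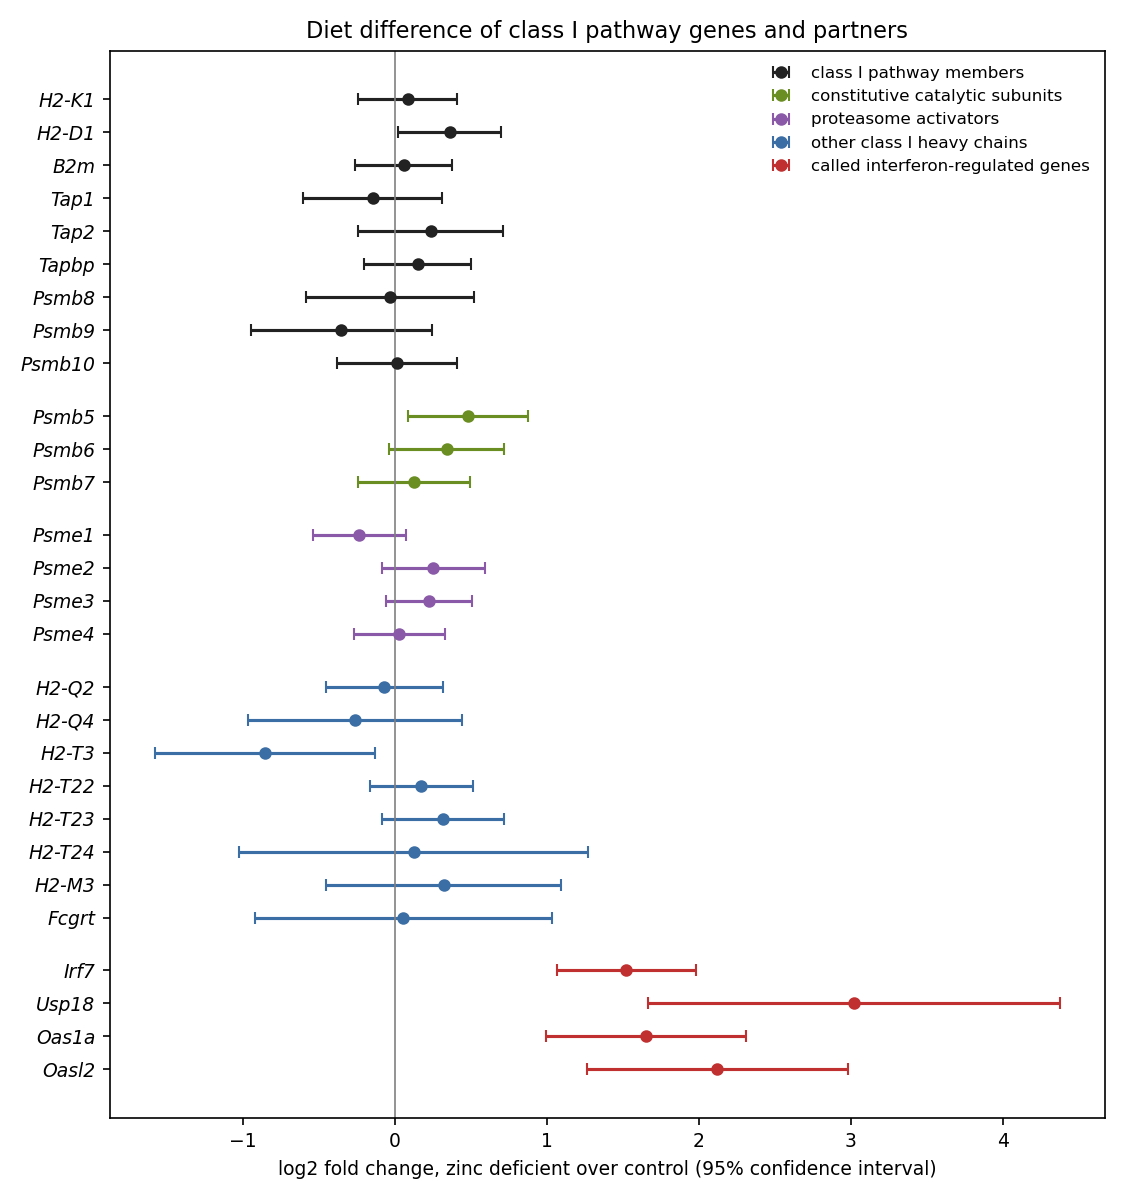
Log2 fold change, zinc deficient over control, with 95% confidence intervals from edgeR for the 9 tested class I pathway genes (black), constitutive catalytic subunits (green), proteasome activators (purple), other class I heavy chain genes (blue) and the interferon-regulated genes that passed the test (red). The black intervals all include 0 except that of H2-D1, which starts at 0.02, and the 4 red intervals start above 0.99.

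The same genes can be compared within a mouse, where no scaling between libraries is needed. In TPM, H2-D1 stood at 0.602, 0.650, 0.651 and 0.627 of H2-K1 in control mice and at 0.769, 0.658, 0.781 and 0.849 of it in zinc deficient mice. These values did not overlap, since even zinc deficient replicate 2, with the lowest ratio of its diet, lay above the highest control mouse. The difference of the log2 CPM ratio was 0.27, or 1.203-fold, with an exact permutation p of 0.0286, the smallest that 70 assignments of the mice allow (two-sided). Adjusted over the 6 ratios tested it was 0.171 (exact permutation test, Benjamini-Hochberg), which does not pass 0.05. With 6 ratios, a single ratio at the smallest p always gives this adjusted value, and 4 ratios at that p would be needed to pass. Without each mouse in turn the difference was between 0.21 and 0.34. Of the windows of 70 bases, 79.1% for the H2-K1 and 65.9% for the H2-D1 transcript were unique. A unique window matched no transcript of another gene and no place in the genome outside its own gene. Of the windows, 534 of 2048 for H2-D1 and 290 of 1550 for H2-K1 were shared with 1 long non-coding RNA each on the opposite strand. With the strand setting of the counting unknown, reads of the heavy chain genes and of these RNAs cannot be told apart over those windows.

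Each inducible subunit of the proteasome was also set against the constitutive subunit that it replaces. Psmb10 stood at 2.63 ± 0.306 times the TPM of Psmb7 in control and 2.44 ± 0.243 times in zinc deficient mice (SD, n = 4 each). Whether Psmb10 or Psmb7 was higher depended on the length used: the ratio was above 1 in 8 of 8 mice with summed exon lengths (1732 and 6025 bases) and with the longest transcripts, and in 0 of 8 with the canonical transcripts (1312 and 1160 bases), where its mean was 0.644. Psmb8 and Psmb9 stayed below their counterparts in 8 of 8 mice with each of these lengths. Psmb8 stood at 0.321 ± 0.113 of Psmb5 in control and at 0.227 ± 0.0836 in zinc deficient mice. Psmb9 had the lowest ratio, at 0.0604 ± 0.0165 and 0.0374 ± 0.0153 of Psmb6. All 3 log2 ratios were lower on the zinc deficient diet, by -0.10 for Psmb10 to Psmb7, -0.45 for Psmb8 to Psmb5 and -0.58 for Psmb9 to Psmb6. None passed the exact permutation test, with adjusted p of 0.371, 0.24 and 0.24. With 1 mouse left out at a time, the differences ranged from -0.05 (without control replicate 4) to -0.17 (without control replicate 2) for Psmb10, from -0.27 (without control replicate 1) to -0.66 (without control replicate 2) for Psmb8 and from -0.45 (without control replicate 1) to -0.78 (without zinc deficient replicate 3) for Psmb9. The 53.9% of Psmb5 windows that were unique make its level, and the ratio built on it, less certain.

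Neither ratio of partner chains separated the diets. Tap1 stood at 0.754 ± 0.221 of Tap2 in control and 0.559 ± 0.113 in zinc deficient mice (TPM, SD, n = 4 each, exact permutation adjusted p = 0.24). B2m stood at 0.502 ± 0.0312 and 0.458 ± 0.0418 of the sum of H2-K1 and H2-D1 (exact permutation adjusted p = 0.24). With 1 mouse left out at a time, the difference of the log2 ratio of Tap1 to Tap2 ranged from -0.19 (without control replicate 3) to -0.47 (without control replicate 2), around -0.34 with all mice. That of B2m to the heavy chains was -0.13 with all mice and -0.07 without zinc deficient replicate 3. The order of the Tap1 and Tap2 levels also depended on length, with a mean ratio of 1.06 for the canonical transcripts.

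**Figure D4:**
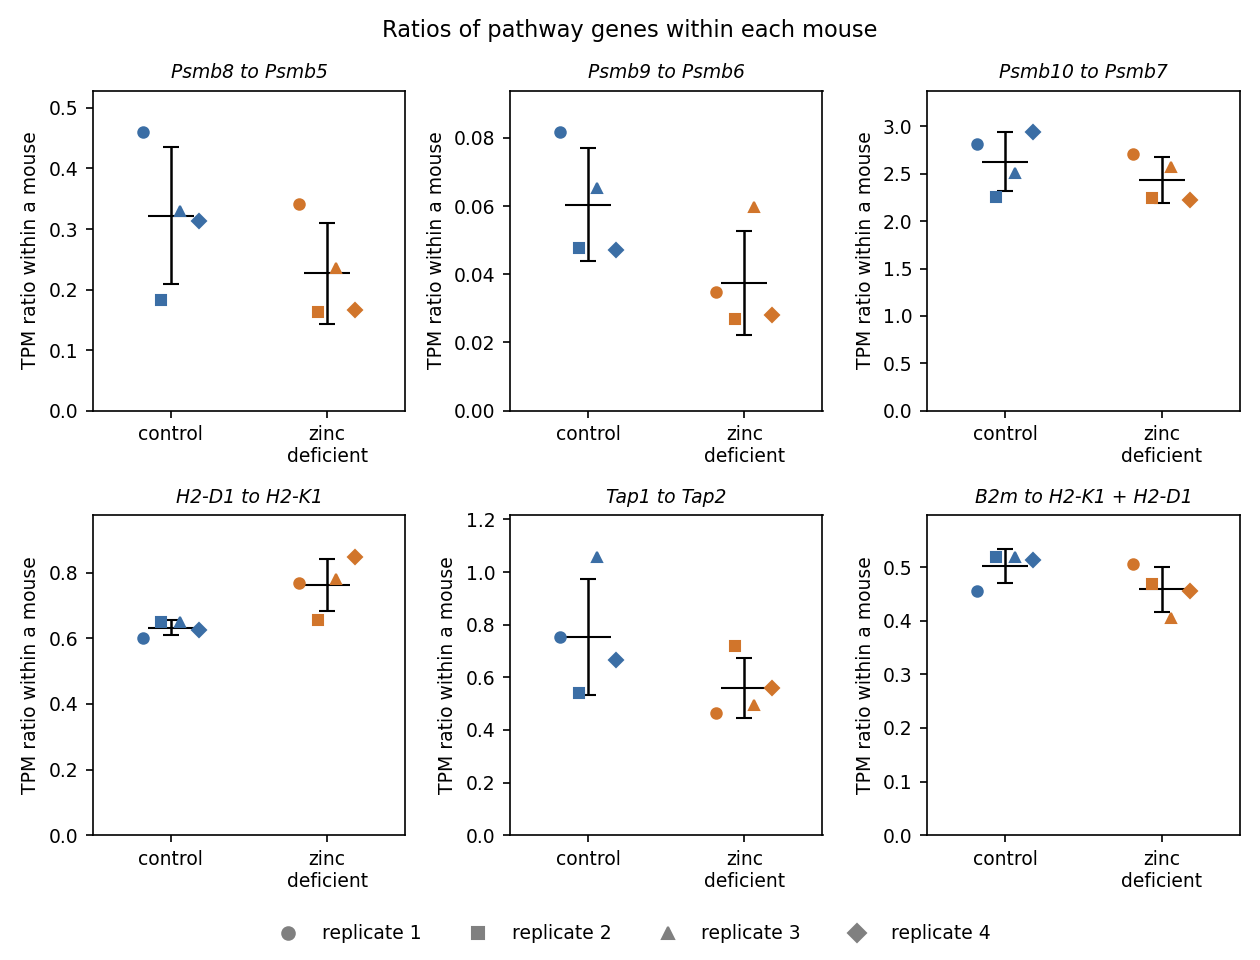
Ratio of the TPM of 2 genes, or of B2m to the sum of both heavy chains, within each control (blue) and zinc deficient (orange) mouse, with lines for means and bars for SDs of 4 mice. Only the panel of H2-D1 to H2-K1 shows diets without overlap, 0.602 to 0.651 against 0.658 to 0.849, and the side of 1 on which the ratio of Psmb10 to Psmb7 lies depends on the gene length used, here the summed exon length.

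The remaining genes of the pathway were followed in lists. Over all tested genes, edgeR called 0.403%, 10.5% had an unadjusted p under 0.05 and 6.09% did not overlap between diets. Of 21 other class I and class I-like heavy chains, 8 were tested, 5 had no count in any mouse and 0 passed the test. DESeq2 called 0 too, and each tool had 1 gene at an unadjusted p under 0.05. In edgeR this was H2-T3, the gene of the thymus leukemia antigen of intestinal epithelium. H2-T3 had 4.09, 3.52, 3.15 and 3.91 CPM in control and 2.59, 1.39, 2.95 and 1.12 CPM in zinc deficient mice, without overlap. Its log2 fold change was -0.86 (SE 0.34, edgeR adjusted p = 0.372). H2-T23, which encodes Qa-1, was the highest of these genes at 18.7 TPM ± 5.09 (SD, n = 8), with a log2 fold change of 0.31 (SE 0.19, edgeR adjusted p = 0.606). Some H2-Q and H2-T genes share much of their sequence with other genes, so that their reads may have been split or dropped. Unique windows made up 15.6% for H2-Q6 and 21.4% for H2-Q7, but 67.6% for H2-T23, 71.2% for H2-T22 and 98.3% for H2-Q2.

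Peptide trimming and loading partners numbered 15, all tested, with 0 called by edgeR or DESeq2, 1 and 2 at an unadjusted p under 0.05 in these tools and a median log2 fold change of 0.05. Among them, the chaperone calreticulin (Calr) had 108 TPM ± 31.3, and a log2 fold change of 0.19 (SE 0.23, edgeR adjusted p = 0.825). Its level was above that of H2-K1, as were those of the chaperones Hspa5 (92.9 TPM) and Pdia3 (75.9 TPM). The trimming peptidase Erap1 had a log2 fold change of -0.12 (SE 0.15, edgeR adjusted p = 0.850). Of the 3 constitutive catalytic subunits, 0 were called by either tool and 1 had an unadjusted p under 0.05 in each. In edgeR it was Psmb5, with a log2 fold change of 0.48 (SE 0.19, edgeR adjusted p = 0.349). The other core subunits and assembly factors numbered 16, and 0 were called by either tool. Each tool had 5 at an unadjusted p under 0.05, all higher in edgeR, where 10.5% of all tested genes reached that level. For 14 of these 16 the log2 fold change was above 0, and their median was 0.34, beside -0.01 for all tested genes. Without control replicate 1 and zinc deficient replicate 2, the median was 0.14 and 0 of 16 had an unadjusted p under 0.05. The proteasome activators, 4 genes that include the interferon-inducible Psme1 and Psme2, had 0 called and 0 at an unadjusted p under 0.05 in either tool. Psme1 had a log2 fold change of -0.23 (SE 0.15) and Psme2 of 0.25 (SE 0.16), neither of which passed the test.

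Among the pathway lists, edgeR made calls only in those of class I regulators and of interferon-stimulated genes. These lists were written with earlier results of these data known, and their difference from the 10 genes was not tested. Of 16 regulators tested, 1 was called by edgeR, beside 0.403% of all tested genes. This was Irf7, a transcription factor that drives type I interferon responses. It had 10.2, 8.68, 5.92 and 7.93 CPM in control and 28.8, 17.3, 18.7 and 30.6 CPM in zinc deficient mice, without overlap. Irf7 rose by a log2 fold change of 1.52 (SE 0.22, edgeR adjusted p = 0.00396), 2.88-fold. The call was made in 16 of 17 alternatives, and scaling by library size alone, with a log2 fold change of 1.12, was the exception (adjusted p = 0.182). DESeq2 called Irf7 and Stat2. Stat2 and Irf9, partners in the complex that binds interferon-stimulated response elements, had log2 fold changes of 0.86 (SE 0.19, edgeR adjusted p = 0.0620) and 0.66 (SE 0.21, edgeR adjusted p = 0.221). Irf1, which activates class I and Psmb9 genes after interferon gamma, had -0.37 (SE 0.21, edgeR adjusted p = 0.584). RFX5, CREB1 and NF-Y genes were not called. Rfx5 had a log2 fold change of 0.02 (SE 0.34) and Nfya of 0.02 (SE 0.19).

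Interferon receptors and their signalling genes gave 0 calls among 10 tested in either tool, with 2 at an unadjusted p under 0.05 in each. The receptor chain Ifngr1 had a log2 fold change of -0.34 (SE 0.15, edgeR adjusted p = 0.440), and the feedback inhibitor Socs3 had 0.81 (SE 0.23, edgeR adjusted p = 0.154).

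Of 29 interferon-stimulated genes in the table, 16 were tested and 3 rose: Usp18, Oas1a and Oasl2. DESeq2 called these 3 and Oasl1 and Rtp4. The list had a median log2 fold change of 0.87, 14 of 16 were above 0, and 7 did not overlap between diets. Over all tested genes, edgeR called 0.147% higher, 5373 of 10911 were above 0, and 6.09% did not overlap. Usp18, a negative regulator of interferon signalling, had 0.700, 0.164, 0.504 and 0.106 CPM in control and 3.02, 1.77, 1.04 and 7.19 CPM in zinc deficient mice. Usp18 had 152 counts over all mice, and control replicates 2 and 4 lay under 3 counts, which are 0.246 and 0.317 CPM there. Its log2 fold change was 3.02 (SE 0.64, edgeR adjusted p = 0.0497). Oas1a, a sensor of double-stranded RNA, had 2.80, 4.83, 5.16 and 3.91 CPM in control and 11.96, 7.95, 9.08 and 22.5 CPM in zinc deficient mice. Its log2 fold change was 1.65 (SE 0.31, edgeR adjusted p = 0.0343). Oasl2, of the same family, had a log2 fold change of 2.12 (SE 0.40, edgeR adjusted p = 0.0392).

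These 3 calls were near the threshold. Usp18 was called in 6 of 17 alternatives, Oas1a in 10 and Oasl2 in 11. All 3 lost the call without control replicate 2, 3 or 4 or without zinc deficient replicate 1 or 4, and under scaling by library size alone. Usp18 also lost it without zinc deficient replicate 2, and Oas1a without control replicate 1. Processing choices took the Usp18 call away too. With DESeq2 size factors, with a filter of mean CPM of at least 1 and without the robust option, its edgeR adjusted p was 0.0504, 0.0535 and 0.0709. Without control replicate 1 and zinc deficient replicate 2 together, the edgeR adjusted p of Usp18 was 0.0525. The log2 fold change stayed above 0 in every alternative, with lowest values of 2.26 for Usp18, 1.23 for Oas1a and 1.72 for Oasl2. The difference between the response of these genes and that of the 10 class I pathway genes was not tested.

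The 9 tested genes did not rank the mice in the same way. After each gene was centred on the mean of its diet, 25 of 36 pairs of genes had a positive Pearson correlation over the 8 mice, with a median of 0.41 and a range from -0.56 to 0.93. The heavy chains and B2m moved together, with 0.87 for H2-K1 and H2-D1, 0.74 for H2-K1 and B2m and 0.79 for H2-D1 and B2m. Tap1 and Tap2 each had negative correlations with H2-K1, H2-D1 and B2m. In that order, these were -0.35, -0.56 and -0.56 for Tap1 and -0.49, -0.29 and -0.41 for Tap2. All genes of a mouse share a library and its scaling factor, so these values describe the 8 libraries. Control replicate 2 and zinc deficient replicate 2 each had 1 of 9 genes above the mean of its diet, whereas control replicate 4 had 8 of 9 and zinc deficient replicate 3, the mouse with the high tuft cell markers, had 7 of 9.

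The tested genes most like the mean profile of the 9 genes over the 8 mice, each centred within its diet, were Pdss1, Ppp2r5b, Tmem41a, Lrrc14 and Trim35. Their Pearson correlations with that profile were 0.99, 0.96, 0.96, 0.95 and 0.95, and their Spearman correlations were 0.93, 0.90, 0.95, 0.93 and 0.90. They are the highest of 10911 genes less the 9, with means of 2.44 to 9.57 CPM, and such a choice over 8 mice finds high values in any data.

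**Figure D5:**
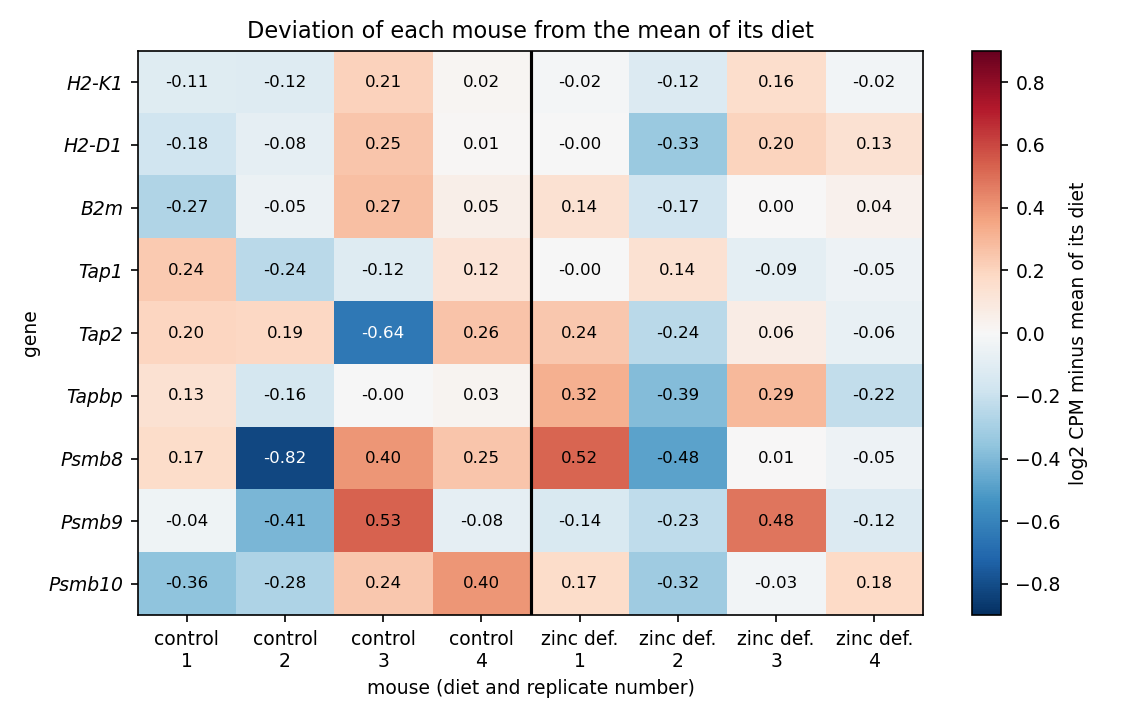
Difference of log2 CPM from the mean of its diet for the 9 tested class I pathway genes (rows) in the 8 mice (columns), from blue (below) to red (above), with the value written in each cell. The columns of control replicate 2 and zinc deficient replicate 2 are mostly blue, with 1 of 9 genes above the mean in each, and Psmb8 in control replicate 2 has the lowest value, -0.82.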

How the data were processed

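Paneth cells of 8 C57BL/6J mice, 4 per diet, gave 1 RNA-seq library each. Raw counts, whole numbers for each Ensembl gene with no normalization, are the values that the authors deposited. Per the labels, the processing notes list FastQC 0.12.0, STAR 2.7.0a, DESeq2 and the build mm39, with no role or order given. Which program counted the reads, with which annotation and strand setting, is not given in the sources used here. Of 55414 identifiers, 54749 were found in GENCODE M39, and where 74 symbols were carried by several identifiers, the one with the most counts was used. No column of another sample was present.

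Diets were compared over all genes with edgeR 4.0.16 in R 4.3.3: TMM scaling, filterByExpr, which kept 10911 genes, the quasi-likelihood test with its robust option, and adjusted p-values (Benjamini-Hochberg) under 0.05. Standard errors were taken as the log2 fold change over the root of F, and 95% confidence intervals from the t quantile on the fitted degrees of freedom. Alternatives were DESeq2 1.42.0, other scalings and filters, a block for the replicate number, and leaving out each mouse. Leaving out both libraries with extreme TMM factors was added after the data were seen, as were the alternatives for Irf7, Usp18, Oas1a, Oasl2 and Top2a and other transcript lengths for the ratios of levels. Ratios within a mouse used log2 of CPM + 1 and exact permutation tests over mice. TPM used the summed exon length, and levels used log2 of TPM + 1. Python 3.11.15, scipy 1.17.1 and pandas 2.3.3 were used for the rest. No pair of libraries of a diet was a repeat of the other (chi-square per degree of freedom of at least 5.43). The labels call the mice biological replicates.

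On simulated counts of the same 10911 genes with 200 changed, 78% were recovered, 96% at a 4-fold and 60% at a 2-fold change, and 8.24% of 170 calls were false. A count of 0 allows up to 3 counts, 0.237 to 0.351 CPM, and such limits cover counting error only. The 10 genes and the lists were chosen with earlier results of these data known. Genes named are the 10 genes, genes of the lists, including every gene of the pathway lists that was called, the 5 genes most correlated with the 10 genes, and genes that overlap them. The values of 1 gene of the regulator list are not reported here by themselves.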

Additional observations from a re-analysis of the deposited data

Results flagged for a closer look

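In 32 groups of 4 mice checked with Dixon's test at the 95% level, 5 held a mouse far from the other 3. Chance flags about 1 group in 20 where values are independent and normally distributed. The ratios reuse the genes, and Nlrc5 had mostly 0 or 1 count, so the number of flags cannot be read against that rate. Tap2 was low in control replicate 3, at 4.16 CPM. Psmb9 was high in zinc deficient replicate 3, at 5.02 CPM. Nlrc5 was high in control replicate 1 (0.593 CPM, 11 counts) and in zinc deficient replicate 2 (0.631 CPM, 5 counts), each in a group where the other mice had 0 or 1 count. The log2 ratio of B2m to the sum of H2-K1 and H2-D1 was low in control replicate 1, at -1.69.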

How the results depend on the processing

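No class I pathway gene was called under any alternative. Against 44 genes called in all, DESeq2's Wald test called 134, library size alone 11, no filter beyond 1 count 251, the test without the robust option 25, and leaving out both control replicate 1 and zinc deficient replicate 2 called 28. With 1 mouse left out the count ranged from 8 (without control replicate 2, or without control replicate 4) to 36 (without zinc deficient replicate 3), with 26, 13 and 17 without zinc deficient replicates 1, 2 and 4. The number of class I genes without overlap between diets was 0 to 1: it was 1 (H2-D1) without control replicate 3, without zinc deficient replicate 2, and without control replicate 1 and zinc deficient replicate 2, and 1 (Psmb9) without zinc deficient replicate 3.

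Signs of small fold changes turned. With library size alone, where the median of all genes was -0.37, log2 fold changes were -0.24 for H2-K1, -0.25 for B2m, -0.13 for Tap2, -0.18 for Tapbp and -0.28 for Psmb10. B2m ranged from -0.031 without control replicate 1 to 0.16 without control replicate 3. Psmb8 was 0.01, 0.09 and 0.04 without control replicates 1, 3 and 4, 0.10 and 0.0011 without zinc deficient replicates 2 and 4, and 0.15 without control replicate 1 and zinc deficient replicate 2. Psmb10 was -0.11 and -0.08 without control replicates 1 and 2, -0.04 and -0.05 without zinc deficient replicates 1 and 4, 0.16 without control replicate 4, and -0.01 without control replicate 1 and zinc deficient replicate 2. The cause was not tested.

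Deviations of same-numbered mice correlated at 0.03 to 0.09, those of other pairs at -0.17 to 0.14, and not every mouse correlated best with its own number. The deviations were centred within each diet of 4 mice, so these values do not decide whether the replicate numbers pair the mice. With the replicate block, 53 genes were called, 0 of them class I pathway genes, and the H2-D1 log2 fold change was 0.35. The block left 4 pairs for the ratio of H2-D1 to H2-K1, with an exact p of 0.125, the smallest that 4 pairs allow. Depth limits Tap1, Tap2, Psmb8, Psmb9 and Nlrc5 most.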
